A study of Mus musculus with 12 samples.

Results

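The genes described here were 31 genes of sterol and fatty acid synthesis, 21 of the sterol branch and 10 of the fatty acid branch, chosen by gene symbol. The array held 30 of them in 61 probe sets, and each gene was represented by its probe set with the highest mean over the 12 arrays. Insig1 had no probe set. Acaca, the acetyl-CoA carboxylase that makes malonyl-CoA, had 1 dim probe set, which lay below the filter with 3.5 to 4.2 on the 12 arrays. That left 29 genes tested, 20 of the sterol and 9 of the fatty acid branch, among 9433 genes tested in all. RNA came from ET cells, labelled a line of mouse fetal thymic cortex epithelium, kept in serum-containing medium with 5 nM TCDD or with its solvent alone, 1,4-dioxane at 0.05% of the volume. TCDD, a dioxin, acts through AhR, the aryl hydrocarbon receptor. The 6 groups were TCDD and solvent at 2, 4 and 6 h, each with 2 arrays called biological duplicates. Which step was done anew for the duplicate is not stated, so the p-values cover the spread among these 12 arrays and no more. All levels below are the authors' log2 values, and a difference of 1 is a doubling in amount. The arrays measured RNA of whole cultures, so fewer cells with a transcript and less RNA per cell cannot be told apart.

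Cells make sterols from acetyl-CoA through mevalonate, farnesyl diphosphate, squalene and lanosterol, and they make fatty acids from acetyl-CoA through malonyl-CoA, followed by elongation and desaturation. Transcription of both branches is driven by the sterol regulatory element binding proteins (SREBPs), which Srebf1 and Srebf2 encode. When membrane sterol is low, Scap escorts the SREBPs from the endoplasmic reticulum to the Golgi for cleavage, and Insig proteins hold them back when sterol is plentiful.

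Titles set the groups, although the second 4 h TCDD array named the solvent in 1 field and both 6 h solvent arrays named 4 h in their descriptions. Cyp1a1, the classical AhR target, lay at 9.3 to 11.1 on the TCDD arrays and at 4 to 5.5 on the solvent arrays. Clustering put 7 arrays (3 TCDD, 4 solvent) into 1 set and left 5 others (3 TCDD, 2 solvent), here the larger and the smaller set. To the smaller set belonged array 2 of TCDD and of solvent at 2 h, array 1 of TCDD at 4 h, and array 2 of TCDD and of solvent at 6 h. These 5 arrays did not form 1 cluster but 3, those of 2 h, of 4 h and of 6 h. The smaller set pools them. The metallothionein gene Mt1 lay at 9.6 to 10.8 on its arrays against 7.1 to 7.4 on the larger set. Cortical thymic epithelium markers lay above the filter in 7 of 14 cases (Ctsl, Cxcl12, Ccl25, Krt8, Tbata, Dll4 and Foxn1). Epcam, Ly75, Enpep, Cdh1, Pax1, Prss16 and Krt18 lay below it. Prss16 and Krt18 did so narrowly, with means of 3.975 and 3.958 against a filter value of 3.983. Of 11 medullary thymic epithelium markers, 6 lay above the filter. All 16 fibroblast and mesenchyme markers lay above it, as did 4 of 7 adipocyte markers, without Adipoq, Lep and Cidec. Over the whole array 9433 of 12393 genes were above the filter. The median marker lay at percentile 33.7 of all probe sets in the cortical list and 33.8 in the medullary list. It lay at 98.3 in the fibroblast and mesenchyme list and at 43.6 in the adipocyte list. Foxn1, with a mean of 4.36, and Dll4, with 4.63, were close to the filter value.

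Promoters of 4 sterol enzyme genes are shown. Each carries CCAAT, the letters that NF-Y, a partner factor of the SREBPs, is known to bind. Of the 4, only that of Hmgcs1 also carries TCACNCCAC, a form of the element that SREBPs are known to bind. Other forms of that element were not searched for. Each is the 250 bases before the annotated start, from RefSeq for build GRCm38.p6, written 5′ to 3′ along the gene. Capitals mark CCAAT on either strand (ATTGG on the other) and the SREBP-type element TCACNCCAC. The regions are chr13:119690101-119690350 (plus strand) for Hmgcs1, chr5:114444019-114444268 (plus strand) for Mvk, chr13:8885356-8885605 (plus strand) for Idi1 and chr5:4104698-4104947 (minus strand) for Cyp51.
Hmgcs1: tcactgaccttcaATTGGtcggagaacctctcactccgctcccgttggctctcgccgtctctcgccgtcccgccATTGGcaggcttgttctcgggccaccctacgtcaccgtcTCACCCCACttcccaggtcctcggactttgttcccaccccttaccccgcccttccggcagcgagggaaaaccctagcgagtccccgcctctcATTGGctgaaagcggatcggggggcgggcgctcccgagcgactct
Mvk: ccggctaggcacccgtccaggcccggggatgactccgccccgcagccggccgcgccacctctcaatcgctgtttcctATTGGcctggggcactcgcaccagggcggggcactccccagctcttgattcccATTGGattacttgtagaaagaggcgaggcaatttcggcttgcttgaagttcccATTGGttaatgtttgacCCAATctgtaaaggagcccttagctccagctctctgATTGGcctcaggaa
Idi1: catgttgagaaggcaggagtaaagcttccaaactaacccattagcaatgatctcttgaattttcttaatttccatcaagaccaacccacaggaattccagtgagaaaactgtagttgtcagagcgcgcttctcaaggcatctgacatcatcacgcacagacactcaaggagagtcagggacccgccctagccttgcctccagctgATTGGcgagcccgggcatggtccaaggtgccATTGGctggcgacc
Cyp51: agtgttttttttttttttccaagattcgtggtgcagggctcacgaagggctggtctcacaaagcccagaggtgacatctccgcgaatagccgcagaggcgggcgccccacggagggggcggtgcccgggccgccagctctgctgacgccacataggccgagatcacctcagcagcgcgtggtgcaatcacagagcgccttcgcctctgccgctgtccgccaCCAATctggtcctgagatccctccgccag

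The Hmgcs1 promoter held the only TCACNCCAC match among the members, 137 bases before the start, beside 3 CCAAT matches, and Mvk held 5 CCAAT matches. Promoters were found for 24 of the 31 genes, 32 promoters in all, with none listed for Fdps, Fdft1, Sqle, Stard4, Scd1, Scd2 and Fads1. CCAAT occurred on either strand in 17 of 25 sterol branch promoters (68%), among them at least 1 promoter of all 12 sterol enzyme genes matched, and in 3 of 7 fatty acid branch promoters. The share over all 32851 mouse promoters in the same window was 33.8%. TCACNCCAC occurred in 1.05% of all promoters. GCGTG, the core that AhR and its partner Arnt bind, occurred in 12 of 25 sterol and 3 of 7 fatty acid promoters, against 28.2% of all. In Fasn a CCAAT and an ATTGG match shared 2 bases, and in Insig2 2 GCGTG matches shared 1. These are letter matches in 1 window and say nothing on binding.

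None of the 29 genes passed the test for TCDD against solvent at 2, 4 or 6 h, on average over the 3 times, or for a change of the effect with time (limma, Benjamini-Hochberg adjusted p under 0.05). On the 1 probe set taken for each gene, none had an unadjusted p under 0.05 in these 5 tests either, against 1.49%, 2.17%, 2.15%, 3.36% and 0.663% of all 15844 probe sets. With the adjusted p, 0.0189% of all probe sets passed at 2 h, 0.0126% at 4 h, 0.00631% at 6 h, 0.0947% on average and 0% for the change with time. A missed threshold does not show that a gene was unaffected, so the intervals give the range of effects these arrays allow. Over the 29 genes, the 95% intervals of the average effect ran from -0.82 (Cyp51) to 0.68 (Fdps) in log2, with a median half-width of 0.31. At a single time the intervals ran from -1.57 (Sqle at 6 h) to 1.80 (Fdps at 4 h).

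**Figure D1:**
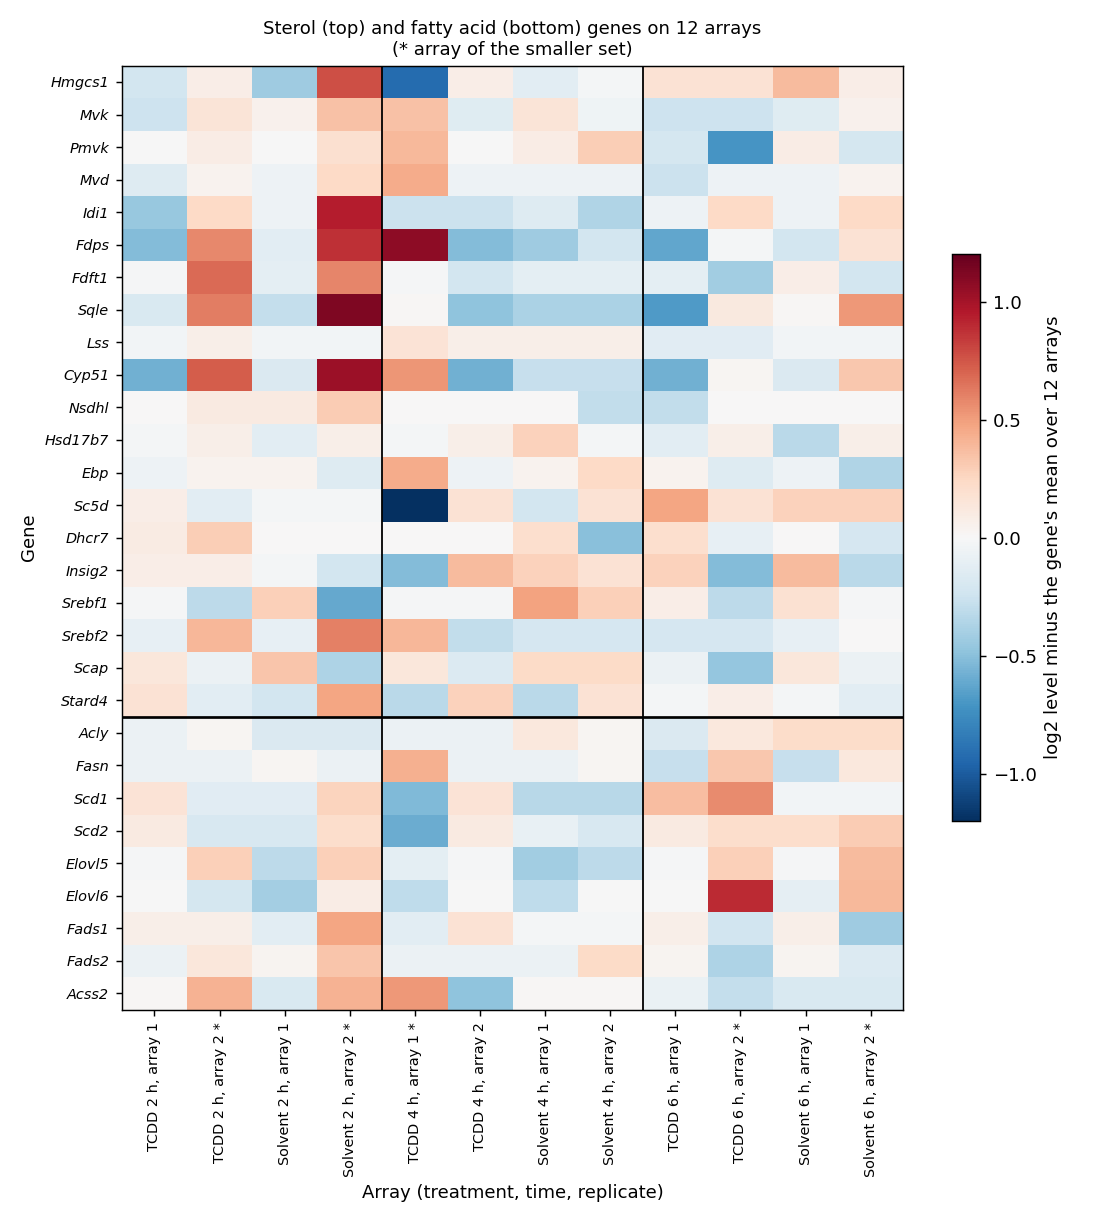
Log2 level of each tested gene (down the page, sterol branch above the line) on each of the 12 arrays (across), after subtracting the gene's mean over the arrays. Asterisks mark the 5 arrays of the smaller set, on which Fdps and Cyp51 were higher than on all 7 arrays of the larger set, and Sc5d and Hmgcs1 were lowest on the first 4 h TCDD array.

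The branch medians of the average TCDD effect were close to zero, and single arrays turned the sign of both. In the sterol branch the median was -0.07, with 14 of 20 genes below zero, 4 above and 2 at zero, while in the fatty acid branch it was 0.03, with 3 of 9 below and 6 above. All tested probe sets had a median of 0.00, and 49.8% of them lay below zero. At 2 h the sterol median was -0.08 (11 of 20 below, against 42.8% of all probe sets), and at 4 h it was 0.05 (6 of 20 below, against 46.4%). Single arrays turned these medians: that at 2 h was 0.05 without the first 2 h TCDD array and 0.08 without the second 2 h solvent array, that at 4 h was -0.08 without the first 4 h TCDD array, and the average was 0.02 without the second 2 h solvent array. The fatty acid average was -0.07 without the first 2 h solvent array and -0.02 without the second 6 h TCDD array. At 6 h the sterol median was -0.15, with 14 of 20 below zero, against a median of -0.05 and 51.1% for all probe sets. Adipocyte markers averaged 4.74 to 4.97 on the TCDD arrays and 4.84 to 5.03 on the solvent arrays. Of the 16 fibroblast and mesenchyme markers, 13 had an average TCDD effect below zero, with a median of -0.07, and they averaged 9.4 to 10.18 on the TCDD arrays and 9.84 to 10.16 on the solvent arrays. The part of either marker list in the result was not tested.

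Among the 6 mevalonate and isoprenoid enzymes, all 6 average TCDD effects lay below zero, with a median of -0.14, against 49.8% of all probe sets. Those of Mvd and Fdps were only -0.02. The count depends on the probe sets taken. A second Mvd probe set gave 0.00, and the other Hmgcs1 probe sets gave -0.28, -0.27 and 0.00. Hmgcs1, which makes HMG-CoA and had the average effect of greatest size in this group, lay at 6.3 and 6.6 (2 h), 5.6 and 6.6 (4 h) and 6.7 and 6.7 (6 h) with TCDD, against 6.1 and 7.3, 6.4 and 6.5, and 6.9 and 6.6 with solvent. The low value was the first 4 h TCDD array and the high value the second 2 h solvent array, and the treatments overlapped at every time. The average effect was -0.22 ± 0.23 (SE, 95% interval -0.72 to 0.29, limma adjusted p = 1). It was -0.02 without the second 2 h solvent array and -0.05 without the first 4 h TCDD array.

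Mvk, the mevalonate kinase whose 5 CCAAT matches are shown above, lay at 6.3 and 6.7, 6.9 and 6.4, and 6.3 and 6.3 with TCDD at 2, 4 and 6 h, against 6.6 and 6.9, 6.7 and 6.5, and 6.4 and 6.6 with solvent. At 6 h both TCDD arrays were below both solvent arrays, while at 2 h and 4 h the groups overlapped. Its average effect was -0.13 ± 0.13 (SE, 95% interval -0.42 to 0.15). A second Mvk probe set gave 0.12, so the probe sets differed in sign.

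Fdps, the synthase that makes farnesyl diphosphate, lay at 6.4 and 7.5, 8 and 6.4, and 6.3 and 6.9 with TCDD at 2, 4 and 6 h, against 6.8 and 7.8, 6.5 and 6.7, and 6.7 and 7.1 with solvent. The 5 highest values, 6.9 to 8, were those of the smaller array set, in both treatments. The average effect was -0.02 ± 0.31 (SE, 95% interval -0.71 to 0.68), and it was -0.28 without the first 4 h TCDD array and 0.25 without the second. Idi1, the isomerase between the C5 isoprenoid units, had the lowest 2 h effect of all members at -0.55 ± 0.32 (SE), with 4.2 and 4.9 on the TCDD arrays against 4.6 and 5.6 on the solvent arrays, which overlapped. Without the second 2 h solvent array that effect was -0.05. In Pmvk, the phosphomevalonate kinase, the arrays lay at 6.2 and 6.3, 6.6 and 6.2, and 6 and 5.5 with TCDD at 2, 4 and 6 h, against 6.2 and 6.4, 6.3 and 6.5, and 6.3 and 6 with solvent. Its 6 h effect of -0.40 ± 0.22 (SE) was the lowest of these enzymes at that time, and Mvd, the mevalonate diphosphate decarboxylase, averaged -0.02 ± 0.12 (SE).

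The 9 enzymes from squalene to cholesterol were split, with 5 average effects below zero, 3 above and 1 at zero. Sqle, the squalene epoxidase and a rate-controlling step, lay at 6.1 and 6.9, 6.3 and 5.8, and 5.6 and 6.4 with TCDD at 2, 4 and 6 h, against 6 and 7.4, 5.9 and 5.9, and 6.3 and 6.8 with solvent. At every time the treatments overlapped, and at 2 h and 6 h the second array of each treatment was the higher one. Its average effect was -0.20 ± 0.26 (SE, 95% interval -0.79 to 0.39), and its 6 h effect of -0.55 ± 0.46 (SE) was the lowest of all members at that time. Without the second 2 h solvent array the average was 0.03.

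Cyp51, the lanosterol demethylase, lay at 5.2 and 6.5, 6.3 and 5.2, and 5.2 and 5.8 with TCDD at 2, 4 and 6 h, against 5.6 and 6.8, 5.5 and 5.5, and 5.6 and 6.1 with solvent. The treatments overlapped at every time. The 3 values of 5.2 were TCDD arrays of the larger set, and no solvent array lay under 5.5. Both other Cyp51 probe sets lay below the filter, with means of 3.69 and 3.41, and were not tested. The average effect was -0.15 ± 0.30 (SE, 95% interval -0.82 to 0.52). It was 0.07 without the first 2 h TCDD array, 0.05 without the second 2 h solvent array and 0.03 without the second 4 h TCDD array. Dhcr7, which reduces 7-dehydrocholesterol to cholesterol in the last step, lay at 6.3 and 6.5, 6.2 and 6.2, and 6.4 and 6.1 with TCDD, against 6.2 and 6.2, 6.4 and 5.7, and 6.2 and 6 with solvent. The groups were apart at 2 h and overlapped at 4 h and at 6 h, and the average effect was 0.17 ± 0.13 (SE, 95% interval -0.13 to 0.46).

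The other enzymes of this group stayed close to zero on average. Fdft1, the squalene synthase, gave -0.03 ± 0.16 (SE). Its other 3 probe sets gave -0.25 (limma unadjusted p = 0.0443, adjusted p = 1), -0.13 and 0.13, so they differed in sign. Lss, which cyclizes squalene epoxide to lanosterol, gave 0.00 ± 0.08. Nsdhl and Hsd17b7, which act in demethylation at C4, gave -0.05 ± 0.10 and 0.02 ± 0.11, and the sterol isomerase Ebp gave 0.08 ± 0.12. Sc5d, the sterol desaturase, gave -0.15 ± 0.21, and it was 0.08 without the first 4 h TCDD array, which lay at 5.3 while the other arrays lay at 6.3 to 7. A second, dimmer Sc5d probe set gave 0.40 at 4 h against -0.50 for the first, so the probe sets of this gene disagreed.

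**Figure D2:**
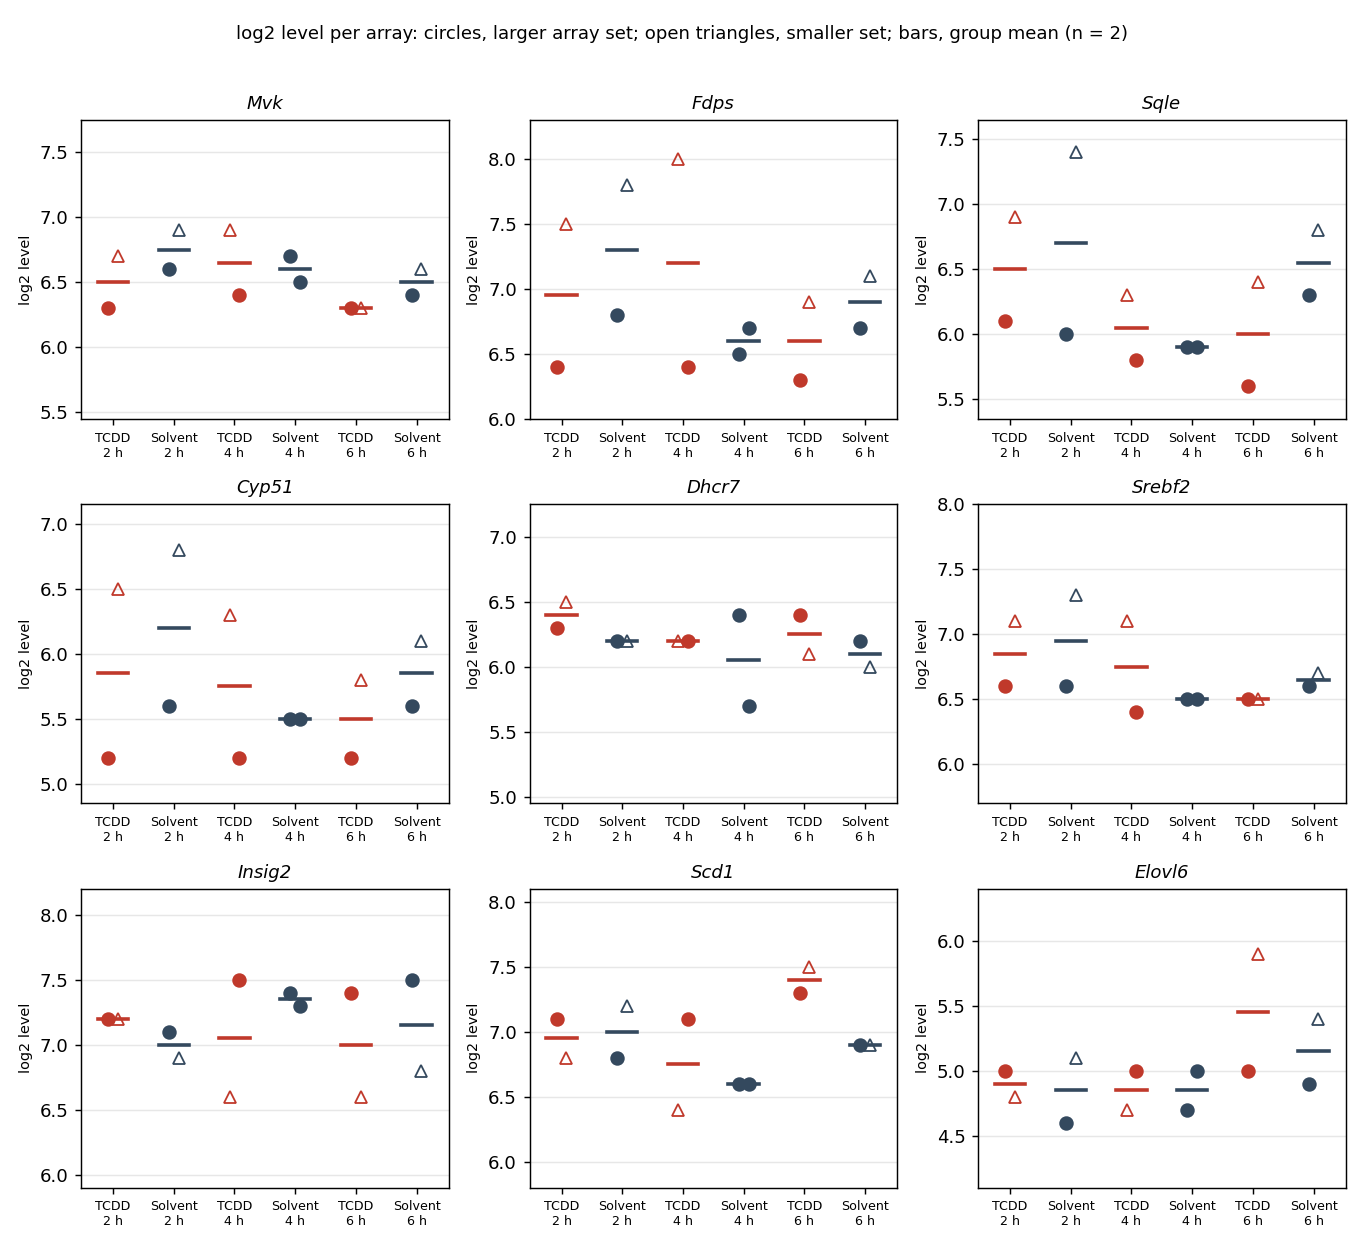
Log2 level on each array (vertical axis) of 9 genes in the 6 groups (across), with TCDD left of solvent at each time; circles mark the larger array set, open triangles the smaller one, and bars the mean of 2 arrays. In the Cyp51 panel the 3 TCDD circles sit at 5.2 and the 4 solvent circles at 5.5 to 5.6, and the 5 triangles sit higher at 5.8 to 6.8.

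The 4 tested SREBP regulators had average effects of -0.20 to 0.00. Srebf1, which encodes the SREBP tied more to fatty acid genes, lay at 7.3 and 7, 7.3 and 7.3, and 7.4 and 7 with TCDD at 2, 4 and 6 h, against 7.6 and 6.7, 7.8 and 7.6, and 7.5 and 7.3 with solvent. Both TCDD arrays were below both solvent arrays at 4 h, and the groups overlapped at 2 h and 6 h. The average effect was -0.20 ± 0.16 (SE, 95% interval -0.56 to 0.16). Srebf2, which encodes the SREBP tied more to sterol genes, lay at 6.6 and 7.1, 7.1 and 6.4, and 6.5 and 6.5 with TCDD, against 6.6 and 7.3, 6.5 and 6.5, and 6.6 and 6.7 with solvent. Its groups were apart only at 6 h, by 0.1 at the nearest values, and the average effect was 0.00 ± 0.16 (SE). At 6 h a second Srebf2 probe set gave 0.10 against -0.15 for the first, so the probe sets differed in sign there. Scap lay at 8.2 and 8, 8.2 and 7.9, and 8 and 7.6 with TCDD, against 8.4 and 7.7, 8.3 and 8.3, and 8.2 and 8 with solvent, lower with TCDD on both arrays at 4 h, and averaged -0.17 ± 0.14. Insig2 lay at 7.2 and 7.2, 6.6 and 7.5, and 7.4 and 6.6 with TCDD, against 7.1 and 6.9, 7.4 and 7.3, and 7.5 and 6.8 with solvent. Only at 2 h were both TCDD arrays higher, and the average was -0.08 ± 0.20. Stard4, a cytosolic carrier of cholesterol, lay at 4.8 and 4.5, 4.3 and 4.9, and 4.6 and 4.7 with TCDD, against 4.4 and 5.1, 4.3 and 4.8, and 4.6 and 4.5 with solvent. The treatments overlapped at 2 h and 4 h and met at 4.6 at 6 h, with an average effect of 0.02 ± 0.16 (SE).

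In the fatty acid branch the desaturase Scd1 had the average effect of greatest size. Scd1, which puts the first double bond into stearoyl-CoA, lay at 7.1 and 6.8, 6.4 and 7.1, and 7.3 and 7.5 with TCDD at 2, 4 and 6 h, against 6.8 and 7.2, 6.6 and 6.6, and 6.9 and 6.9 with solvent. At 6 h both TCDD arrays were above both solvent arrays, with an effect of 0.50 ± 0.24 (SE, 95% interval -0.04 to 1.04, unadjusted p = 0.0655, limma adjusted p = 1). The second Scd1 probe set, which lay close to the filter value at a mean of 4.06, gave 0.15 at 6 h. The average effect of the first was 0.20 ± 0.14 (SE, 95% interval -0.11 to 0.51).

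Elovl6, which lengthens saturated and monounsaturated acyl chains, lay at 5 and 4.8, 4.7 and 5, and 5 and 5.9 with TCDD at 2, 4 and 6 h, against 4.6 and 5.1, 4.7 and 5, and 4.9 and 5.4 with solvent. The treatments overlapped at every time, and the second arrays at 6 h were the highest of each treatment. The average effect was 0.12 ± 0.18 (SE, 95% interval -0.28 to 0.52). Elovl5, an elongase of polyunsaturated chains, gave 0.13 ± 0.14, and at 4 h its TCDD arrays at 8.5 and 8.6 lay above the solvent arrays at 8.2 and 8.3. Fads1 and Fads2, the desaturases of polyunsaturated chains, gave 0.02 ± 0.14 and -0.13 ± 0.12, and Scd2 gave -0.08 ± 0.14.

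Acly, which splits citrate into cytosolic acetyl-CoA for both branches, had groups that were apart at each time but in different directions. It lay at 8.9 and 9, 8.9 and 8.9, and 8.8 and 9.1 with TCDD at 2, 4 and 6 h, against 8.8 and 8.8, 9.1 and 9, and 9.2 and 9.2 with solvent. TCDD arrays were higher at 2 h and lower at 4 h and 6 h, by 0.1 between the nearest values, and the change of the effect with time did not pass (limma unadjusted p = 0.215, adjusted p = 1.00). The average was -0.08 ± 0.09 (SE, 95% interval -0.28 to 0.12). A second Acly probe set gave 0.10, -0.10 and -0.15 at 2, 4 and 6 h, and another gave -0.05, -0.15 and -0.15. At 2 h the Acly probe sets thus differed in sign. Fasn, the fatty acid synthase, lay at 8.3 and 8.3, 8.8 and 8.3, and 8.1 and 8.7 with TCDD, against 8.4 and 8.3, 8.3 and 8.4, and 8.1 and 8.5 with solvent. Its 2 highest values were TCDD arrays of the smaller set, and the average effect was 0.08 ± 0.14 (SE). Acss2, which makes acetyl-CoA from acetate, lay at 4.5 and 4.9, 5 and 4, and 4.4 and 4.2 with TCDD, against 4.3 and 4.9, 4.5 and 4.5, and 4.3 and 4.3 with solvent. Its highest and lowest values were the 2 TCDD arrays at 4 h, and the average effect was 0.03 ± 0.18 (SE).

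Counts of genes whose 2 TCDD and 2 solvent arrays did not overlap were no higher than the share over the whole array. At 2 h they were 3 of 29 (Dhcr7, Insig2 and Acly, all higher with TCDD), against 13.8% of all probe sets, and at 4 h 4 of 29 (Elovl5 higher, Srebf1, Scap and Acly lower), against 19.1%. At 6 h they were 5 of 29, with Scd1 higher and Mvk, Lss, Srebf2 and Acly lower, against 19.3%. These genes and those named for the array sets below were chosen after their values were seen.

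Some sterol genes differed between the array sets in every group that held both. Fdps and Cyp51 were higher on all 5 arrays of the smaller set than on all 7 of the larger set, 2 of 20 sterol genes, against 1.98% of all probe sets, and no member was lower throughout, against 3.14%. Fdps averaged 7.46 ± 0.46 on the smaller set and 6.54 ± 0.19 on the larger set (SD, n = 5 and 7), and Cyp51 averaged 6.30 ± 0.38 on the smaller set and 5.40 ± 0.19 on the larger set. Between the set means, Sqle differed by 0.82, Idi1 by 0.48 and Srebf2 by 0.41 in the same direction, while Insig2 differed by -0.52 and Srebf1 by -0.44. Of these, only Sqle differed in every group that held both sets. The difference was 0 for Idi1 and Srebf1 with TCDD at 4 h, Srebf2 with TCDD at 6 h and Insig2 with TCDD at 2 h. Taken group by group, 14 of the 15 sterol enzymes were higher on the smaller-set array with TCDD at 2 h and 11 with solvent at 2 h, against 9 with TCDD at 4 h, 7 with TCDD at 6 h and 7 with solvent at 6 h. The shares over all probe sets in these 5 groups were 42.2%, 40.7%, 53.7%, 44.9% and 44.7%. Mt1 differed between these sets as given above, and fibroblast and mesenchyme markers averaged 9.4 to 10.02 on the smaller set and 9.92 to 10.18 on the larger one. The part of these genes in the result was not tested. The sets were made from the same arrays and values, so these differences are a description, with no test.

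**Figure D3:**
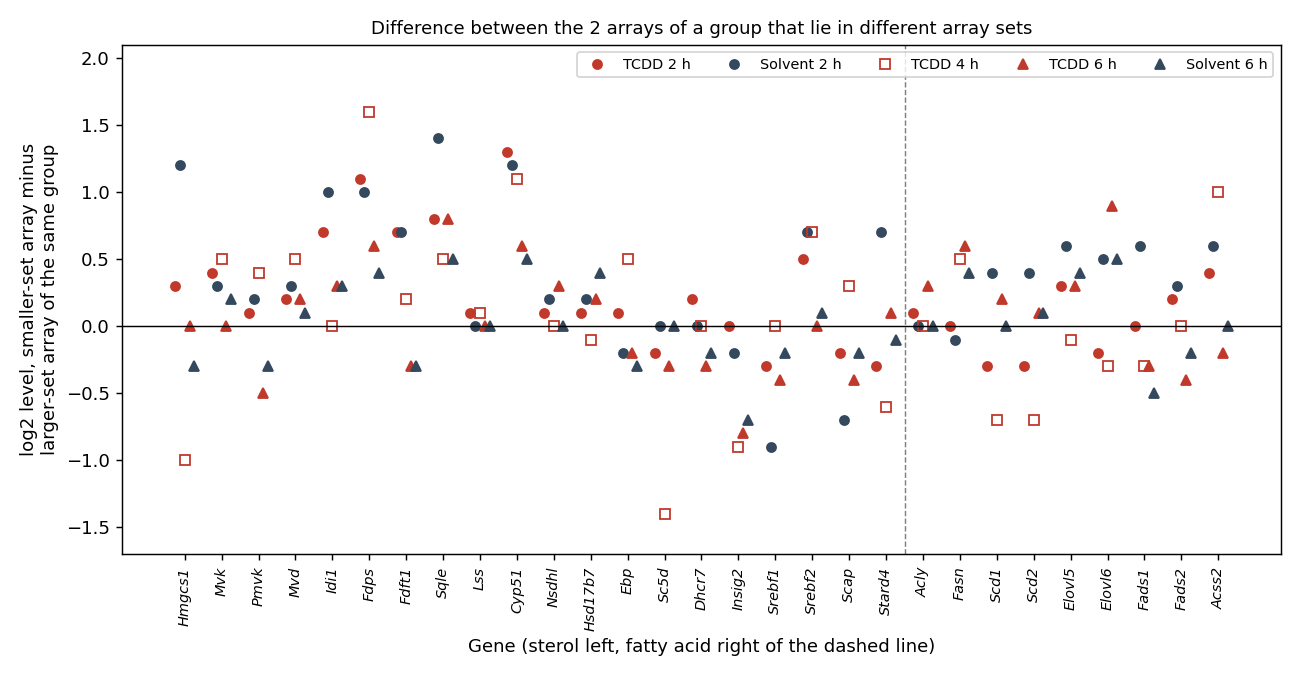
Difference in log2 level (vertical axis) between the smaller-set and the larger-set array of a group, for each gene (across), in the 5 groups that hold 1 array of each set. For Fdps, Sqle and Cyp51 all 5 differences lie above zero, from 0.4 to 1.6, and for Hmgcs1 they run from -1 in TCDD at 4 h to 1.2 in solvent at 2 h.

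Differences between TCDD and solvent were also taken inside a set, which gave 5 values for each gene, 2 at 2 h, 1 at 4 h and 2 at 6 h. The 4 h value set the second TCDD array against the mean of both solvent arrays. The first 4 h TCDD array had no solvent array in its set and entered none of the 5. Mvk, Fdps and Cyp51 were lower with TCDD in all 5, 3 of 20 sterol genes, against 2.71% of all probe sets. On the array left out, these 3 lay above both 4 h solvent arrays. Mvk lay at 6.9 against 6.7 and 6.5, Fdps at 8 against 6.5 and 6.7, and Cyp51 at 6.3 against 5.5 and 5.5. The Cyp51 differences were -0.4 and -0.3 at 2 h, -0.3 at 4 h and -0.4 and -0.3 at 6 h, with the larger set first. Those of Fdps were -0.4, -0.3, -0.2, -0.4 and -0.2 in that order, and those of Mvk were -0.3, -0.2, -0.2, -0.1 and -0.3. Dhcr7 was higher with TCDD in all 5, by 0.1 to 0.3, against 2.21% of all probe sets. At 2 h and 6 h alone, with 4 differences, Mvd joined the 3 lower genes (4 of 20, against 3.41% of all probe sets), and 2.75% of all were higher in all 4. No fatty acid gene kept 1 direction in all 5, but Scd1 and Elovl6 were each higher in 4 of 5, with the smaller set at 2 h as the exception at -0.4 and -0.3, and Fads2 was lower in 4 and equal in 1.

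With the array set as a block, the sterol median of the average TCDD effect was -0.08, with 16 of 20 genes below zero, against 53.1% of all probe sets, and that of the fatty acid branch was 0.03. Again 0 of 29 genes passed (limma, against 0.29% of all probe sets). An unadjusted p under 0.05 was found for 2 of 29, against 5.16% of all. These were Sqle at -0.33 ± 0.12 (SE, 95% interval -0.61 to -0.05, limma unadjusted p = 0.0246, adjusted p = 0.763) and Cyp51 at -0.31 ± 0.12 (SE, 95% interval -0.59 to -0.03, limma unadjusted p = 0.0345, adjusted p = 0.863). At single times 0 of 29 passed, against 0.0631% of all probe sets at 2 h, 0.0442% at 4 h and 0.0505% at 6 h. An unadjusted p under 0.05 was found for Idi1 at 2 h (-0.55 ± 0.23, SE, limma adjusted p = 1, 1 of 29 against 2.7% of all), for no member at 4 h (2.8% of all) and for Sqle at 6 h (-0.55 ± 0.21, SE, limma adjusted p = 0.959, 1 of 29 against 3.72% of all). Blocked p-values can be too small, because the sets came from the values tested.

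Time was the other axis of the design. Between 6 h and 2 h, averaged over both treatments, 17 of 20 sterol genes had a log2 change below zero, with a median of -0.11, against 51.6% of all probe sets and a median of -0.03, whereas the fatty acid branch had 3 of 9 below and a median of 0.10. The sterol genes differed between these times mainly on arrays of the smaller set. Their mean deviation from each gene's mean over the arrays was -0.12 with TCDD and 0.01 with solvent on the smaller-set arrays at 6 h, against 0.18 with TCDD and 0.31 with solvent at 2 h. On the larger-set arrays it was -0.12 with TCDD and 0.02 with solvent at 6 h, against -0.10 with TCDD and -0.05 with solvent at 2 h. None of the 29 passed (limma), and on the probe set taken for each gene 1 had an unadjusted p under 0.05, against 0% and 11.1% of all probe sets. That gene was Fdft1, the squalene synthase. It lay at 7.4 and 7.1 with TCDD and 7.6 and 7.3 with solvent at 6 h, against 7.5 and 8.2 with TCDD and 7.4 and 8.1 with solvent at 2 h, so the second 2 h array of each treatment was high and the times overlapped. At 4 h it lay at 7.5 and 7.3 with TCDD and 7.4 and 7.4 with solvent. The change was -0.45 ± 0.20 (SE, 95% interval -0.90 to -0.00, limma unadjusted p = 0.0482, adjusted p = 0.449). The other Fdft1 probe sets gave -0.475, -0.275 and -0.25 (limma unadjusted p = 0.0688, 0.0657 and 0.0836).

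In the same comparison the log2 difference was -0.38 ± 0.38 for Fdps, -0.33 ± 0.20 for Srebf2, -0.35 ± 0.22 for Acss2 and 0.43 ± 0.22 for Elovl6 (SE), all short of the threshold. A second Elovl6 probe set, close to the filter value at a mean of 4.075, gave 0.50 (limma unadjusted p = 0.0170, adjusted p = 0.433). Sc5d was the only member with all 4 arrays at 6 h apart from all 4 at 2 h, at 7, 6.7, 6.8 and 6.8 against 6.6, 6.4, 6.5 and 6.5, while 6.67% of all probe sets were apart. Within TCDD, 15 of 20 sterol genes were below zero between 6 h and 2 h, against 52% of all probe sets, and within solvent 14 of 20, against 45.1%. Within TCDD, Pmvk had 6 and 5.5 at 6 h against 6.2 and 6.3 at 2 h (-0.50 ± 0.22, SE, limma unadjusted p = 0.0470, adjusted p = 0.610). It was the 1 member of 29 with an unadjusted p under 0.05 there, against 8.1% of all probe sets. Within solvent that member was Acly, with 9.2 and 9.2 at 6 h against 8.8 and 8.8 at 2 h (0.40 ± 0.16, SE, limma unadjusted p = 0.0278, adjusted p = 0.970), against 2.82% of all. Both arrays at 6 h lay apart from both at 2 h for 8 of 29 members within TCDD, against 35.8% of all probe sets, and for 3 of 29 within solvent, against 22.9%. Within TCDD these were Hmgcs1, Sc5d and Scd1, higher at 6 h, and Pmvk, Fdft1, Lss, Srebf2 and Acss2, lower at 6 h, and within solvent Sc5d and Acly, higher, and Nsdhl, lower. Between 4 h and 2 h, 12 of 20 sterol genes were below zero within TCDD and 12 of 20 within solvent, against 44.3% and 42.2% of all probe sets. In the fatty acid branch 8 of 9 were below zero within TCDD and 6 of 9 within solvent, with a median of -0.10 in each. No member had an unadjusted p under 0.05 within TCDD or within solvent, against 1.38% and 1.81% of all probe sets.

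**Figure D4:**
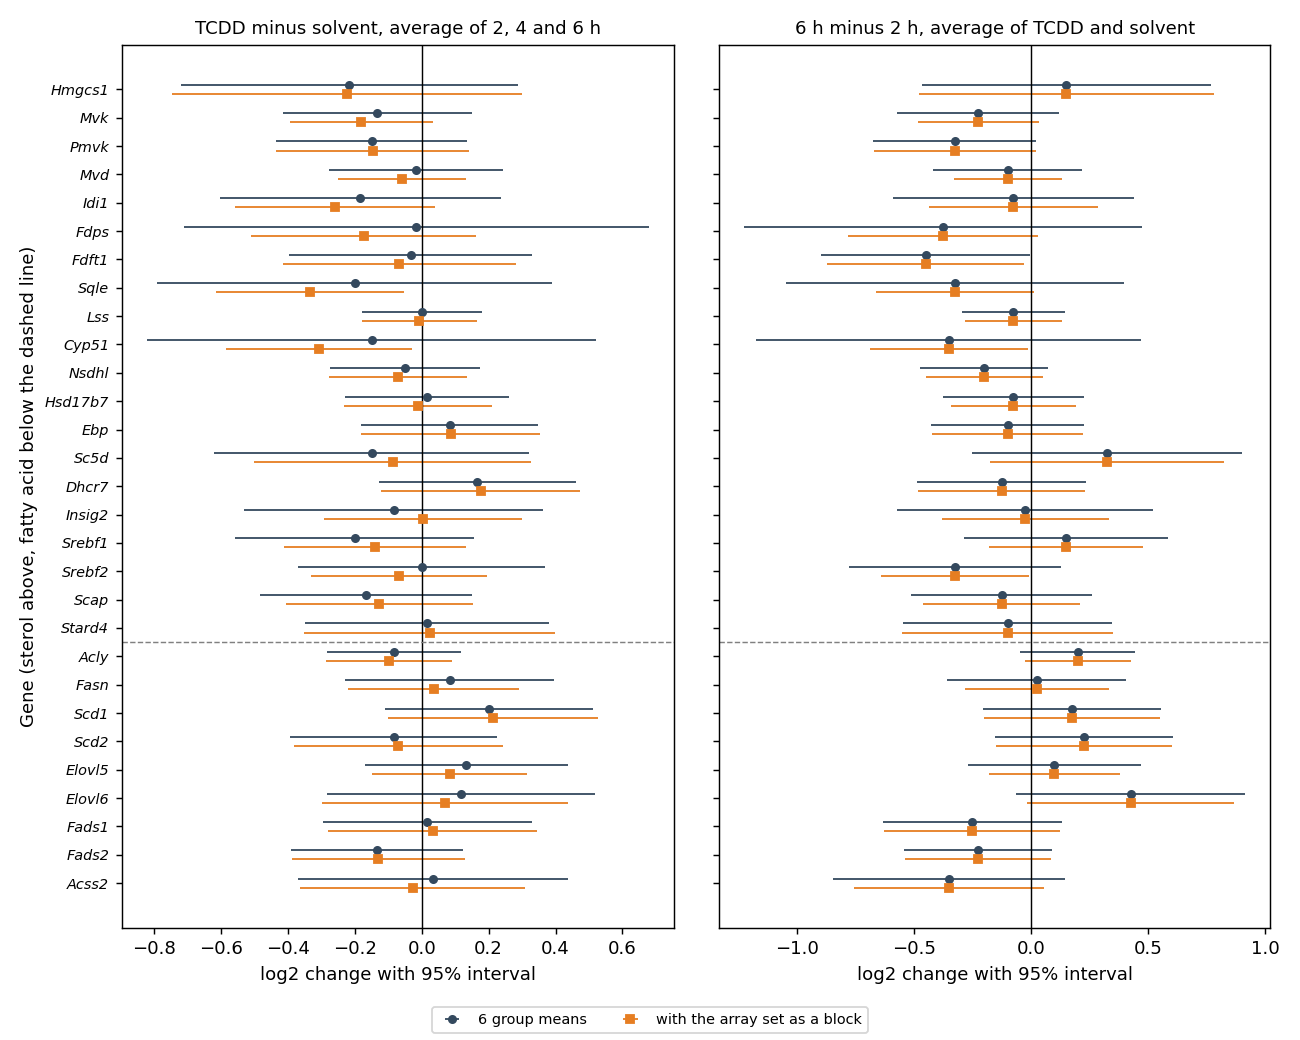
Log2 change of each tested gene (down the page) with its 95% interval from limma, for TCDD minus solvent averaged over 3 times (left) and for 6 h minus 2 h averaged over treatment (right); circles are the fit of 6 group means and squares the fit with the array set as a block. In the left panel all circle intervals cross zero, and with the block only those of Sqle and Cyp51 stay below it.

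Of 74 further genes of these pathways (other sterol enzymes, SREBP cleavage, sterol uptake and efflux, other fatty acid genes), 52 were on the array and 46 tested. None passed in any comparison (limma). On average over the times, 16 lay above zero, 29 below and 1 at zero, with a median of -0.03, and 3 higher and 2 lower had an unadjusted p under 0.05, against 1.87% and 1.49% of all probe sets. The average effects of greatest size were those of Acsl4, an acyl-CoA ligase that prefers arachidonate, at 0.57 ± 0.28 (limma unadjusted p = 0.0697), and of Vldlr, a lipoprotein receptor, at 0.55 ± 0.22 (SE, limma unadjusted p = 0.0329). The 2 lower genes with an unadjusted p under 0.05, named after their values were seen, were Gpam, a glycerol-phosphate acyltransferase, at -0.38 ± 0.10 (SE, limma unadjusted p = 0.00312, adjusted p = 0.588) and Ch25h, the cholesterol 25-hydroxylase, at -0.45 ± 0.16 (SE, limma unadjusted p = 0.0213, adjusted p = 1). Vldlr lay at 8.6 and 8.3, 7.5 and 8.9, and 8.9 and 8.5 with TCDD at 2, 4 and 6 h, against 7.8 and 8.2, 7.7 and 7.7, and 8.2 and 7.8 with solvent, so 5 of 6 TCDD arrays lay above all solvent arrays. The exception was the first 4 h TCDD array. Acsl4 lay at 5.9 and 5.7, 5 and 6.4, and 6.7 and 7.2 with TCDD, against 5.1 and 6.2, 4.6 and 5.3, and 5.9 and 6.4 with solvent. Its groups overlapped at 2 h and 4 h. The 3 higher genes with an unadjusted p under 0.05 were Vldlr, Mylip and Lrp8, the last 2 also named after their values were seen. Mylip gave 0.28 ± 0.11 and Lrp8 0.23 ± 0.10 (SE, limma unadjusted p = 0.0333 and 0.0357).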

How the data were processed

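Total RNA of ET cells was hybridised to 12 Affymetrix arrays. The authors deposited 1 log2 value per probe set and array; per the submitters' processing notes the method was RMA, and version, software and genome build are not given in the sources used here. Values had 1 decimal, ran from 2.2 to 14.1 and had a median of 5.1 on every array, so a change common to most genes cannot be seen, and RMA is known to compress differences near background. No depth applies to arrays, and the number of arrays limits the precision. All 12 columns were used.

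The platform annotation named probe sets of 1 symbol; symbols were matched through gene identifiers to RefSeq (20351 of 20380 matched, 0 changed). Of 22690 probe sets, 64 controls were left out, and the 15844 whose mean reached the 30th percentile (log2 3.98) were tested. The test was limma 3.58.1 (R 4.3.3) with a mean for each group, empirical Bayes moderation and 6 residual degrees of freedom from the 12 arrays; tests were two-sided, with Benjamini-Hochberg adjustment over all tested probe sets, and an adjusted p under 0.05 passed. The script was tested on simulated data. Errors of log2 changes are standard errors. Array sets came from complete linkage clustering over the tested probe sets, the tree cut into 4. The largest cluster was 1 set, and the other 3 clusters were pooled as the smaller set. As a block the sets left 5 residual degrees of freedom.

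Whether the titles' replicate numbers pair the arrays was checked. Deviations of TCDD and solvent arrays of 1 number correlated over probe sets at 0.365 (2 h), 0.159 (4 h) and 0.705 (6 h). The labels do not say what arrays of 1 number share, so the main fit did not pair them. A replicate block was used only as an alternative setting. No 2 arrays held identical values.

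The genes, lists and comparisons were chosen with earlier results of these data known. Values per array are given, in each role group, for the gene with the largest average TCDD effect and that with the largest change between 6 h and 2 h; Mvk, Idi1, Pmvk, Cyp51, Dhcr7, Sc5d, Scap, Insig2 and Elovl5 were added after their values were seen, as were the promoter motifs. Alternatives were another normalization, other filters, blocks, groups, reference arrays, no variance moderation, all probe sets per gene and each array left out.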

Additional observations from a re-analysis of the deposited data

How the results depend on the processing

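The count of 0 of 29 genes past the adjusted threshold held in all 10 comparisons under each of the 20 to 23 alternative settings run for each, from 0 to 0 when single arrays were left out. Under a replicate block, within each time or over all times, the count was also 0, so pairing changed no call. A fit on the compared groups alone was not run for the average over the times or for the change with time, which use all arrays. Leaving out the second 4 h TCDD array, whose labels conflict, left the count at 0.

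The sterol median ran from -0.25 to 0.08 at 2 h, from -0.08 to 0.13 at 4 h (-0.07 with the array set as a block), from -0.17 to -0.08 at 6 h, from -0.13 to 0.02 on average over the times, and from -0.21 to -0.03 for 6 h against 2 h. The fatty acid median ran from -0.20 to 0.15 at 2 h, from -0.15 to 0.15 at 4 h, from -0.15 to 0.08 at 6 h, from -0.07 to 0.12 on average, and from 0.00 to 0.20 for 6 h against 2 h. Single arrays therefore set the sign on average in both branches. The cause was not tested.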
